A study of Mus musculus with 12 samples.

Results

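The genes described here are 42 genes of the amino acid response together with tRNA synthetase genes, out of 21187 genes measured. They were chosen by symbol for their known roles, looked up in the symbol column of the authors' table for C26 conditioned medium, and matched to the array values by Entrez identifier, and 42 of 42 symbols were found once each. The cells were C2C12 myotubes, multinucleated muscle cells formed from a mouse myoblast line, used after 3 days of differentiation. The treated cultures received either C26 conditioned medium, as 1 part in 3 of the volume in differentiation medium, or mouse leukemia inhibitory factor (LIF), an interleukin-6 family cytokine, at 10 ng/ml. C26 cells come from a mouse colon tumour that makes its host waste. Each agent had its own untreated myotubes, and treated and untreated cultures were sampled at 4, 8 and 24 h. Each of the 12 arrays took RNA combined from 3 wells, so an arm has 1 array per time and a difference at a single time has no replicate check.

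When a cell runs short of amino acids, uncharged tRNA activates the kinase GCN2, which phosphorylates the initiation factor eIF2 and slows translation in general. Related kinases do the same for stress in the endoplasmic reticulum, double-stranded RNA and heme shortage. The mRNA of the transcription factor ATF4 is then translated better, and ATF4, with partners of the C/EBP family, switches on genes for amino acid synthesis, amino acid uptake and tRNA charging. In muscle this programme is known from fasting and mitochondrial stress, when secreted members such as Fgf21 and Gdf15 are made.

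The arrays were described in levels on a log2 scale, and a difference is the treated minus the untreated level of one agent and time. Array medians lay between 5.5 and 6.74, and the 24 h arrays of each experiment were on a lower scale than the 4 h and 8 h arrays. Values of the LIF experiment carry 1 decimal, so differences there move in steps of 0.1, and those of the conditioned medium experiment carry 2. The level that 5% of 1284 olfactory and vomeronasal receptor genes exceeded on an array marks the background range, and 40 or 41 of the 42 genes lay above it on every array. All 12 myotube markers lay above background on every array. Of 10 colon carcinoma epithelial markers, 3 lay above it on every array, and Epcam, Krt20, Vil1 and Cldn7 on no array. Of 8 macrophage and leukocyte markers, 2 lay above it on every array. On no array did 5 of them, Ptprc, Adgre1, Csf1r, Lyz2 and Itgam. In pooled cultures, fewer cells of a kind and less RNA per cell cannot be told apart.

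At 24 h with conditioned medium nearly all of these genes had lower levels than in untreated myotubes. At that time 40 of 42 lay below 0, where 48.6% of all genes did, and the median difference was -0.38, against a median of 0 over all genes. A difference of at least 1.5-fold downward (a log2 difference of 0.585) was seen in 11 of the 42 (26.2%), and in 1.29% of all genes or 1.5% of the genes above background in the untreated array. Cth, Slc7a11 and Chac1 were 2-fold lower, 3 of 42 where 0.156% of all genes were. None was 1.5-fold higher, where 1.2% of all genes were. The lowest 5% of all genes at that time, those at or under -0.33, held 27 of the 42. The genes just past 1.5-fold were Atf5 (-0.59) and Slc6a9 (-0.60), and those just short of it were Shmt2 and Ddit4 (-0.58 each).

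At 4 h and 8 h the differences were small. With conditioned medium the median was -0.04 at 4 h, with 31 genes below 0 where 49.6% of all genes were, and -0.03 at 8 h, with 26 below 0 where 47.9% of all genes were. The differences ran between -0.32 and 0.25 at 4 h and between -0.20 and 0.29 at 8 h, and 0 of 42 genes were 1.5-fold lower at either time, where 0.085% and 0.378% of all genes were. As a gauge of how far these genes drift without treatment, the untreated 8 h minus 4 h levels in that experiment ran between -0.38 and 0.22, with 0 of 42 lower by 1.5-fold and 0.0802% of all genes. In the LIF experiment the same untreated difference had a median of 0.10 and ran between -0.10 and 0.60 (Cth). There 31 of 42 lay above 0, where 37.1% of all genes did, and 1 was 1.5-fold higher, where 0.75% of all genes were. That range is a shift between times and leans upward, so it is no gauge for the downward LIF differences.

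**Figure D1:**
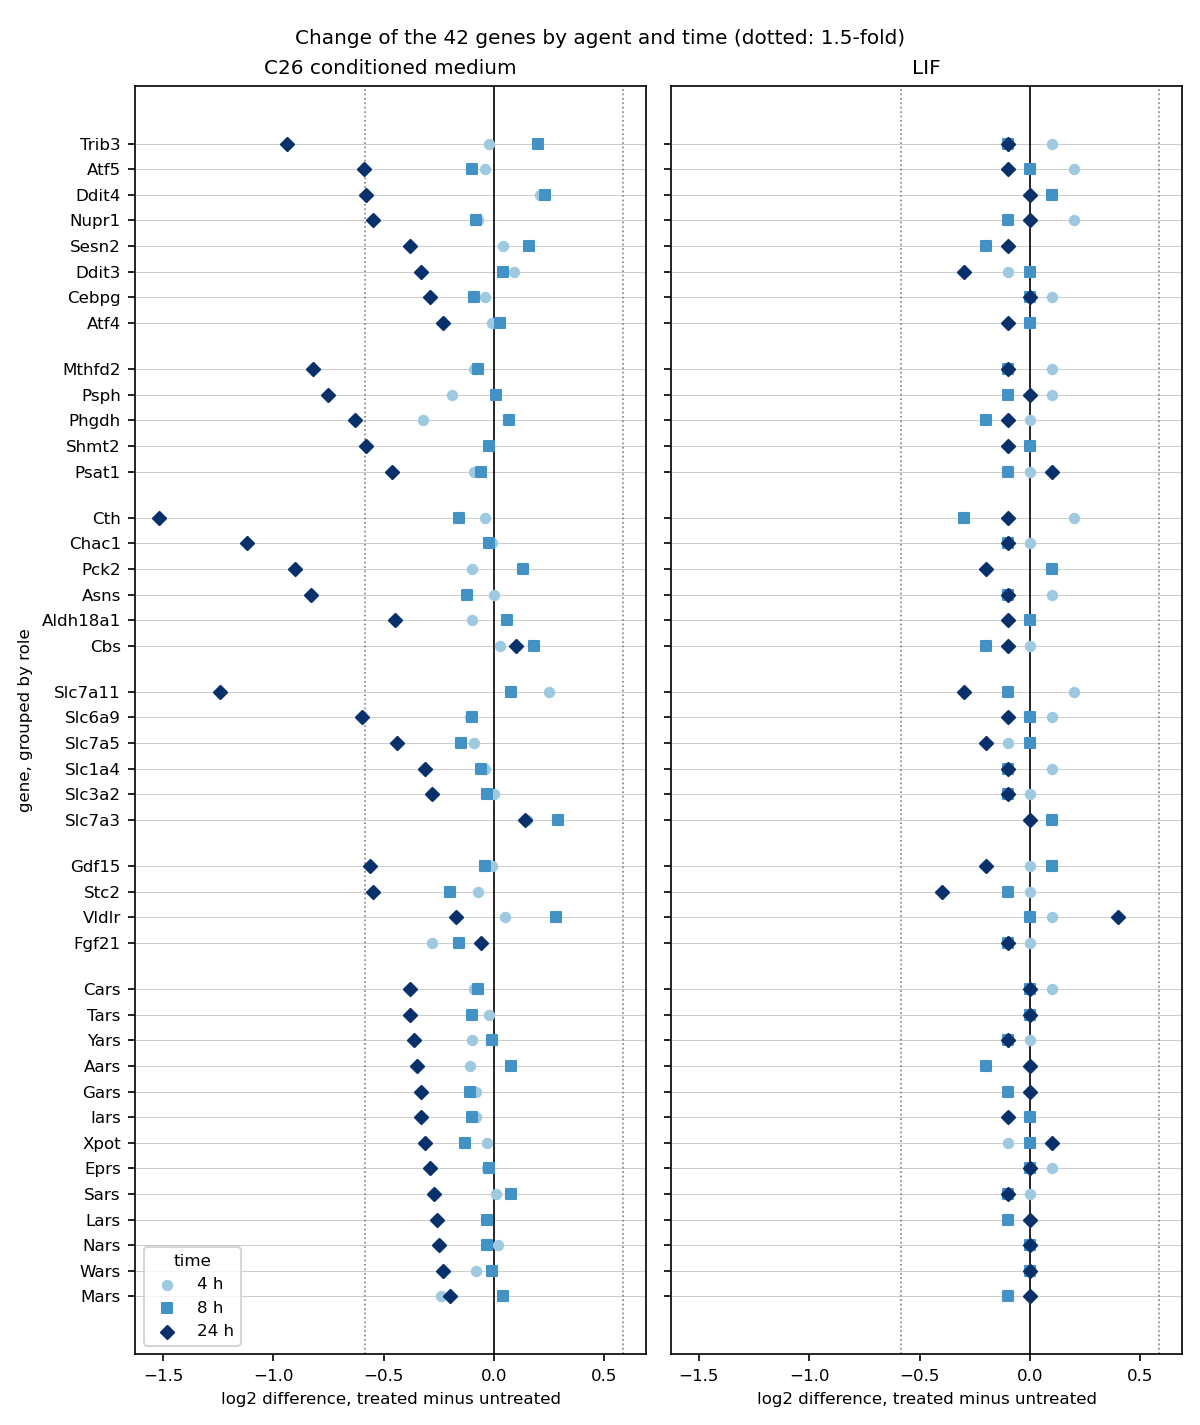
Log2 difference, treated minus untreated, of each of the 42 genes at 4 h (circles), 8 h (squares) and 24 h (diamonds), with C26 conditioned medium on the left and LIF on the right. Rows are grouped by role, from the top regulators, serine and one-carbon enzymes, other enzymes, transporters, secreted proteins with Vldlr, and tRNA synthetases with Xpot. Points are single pairs of arrays, dotted lines mark 1.5-fold, and equal values hide each other. With conditioned medium at 24 h 40 genes lie left of 0 and 11 past the left dotted line.

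With LIF the median difference at 24 h was -0.10, against the -0.38 of conditioned medium. The LIF median was 0 at 4 h and -0.10 at 8 h, and -0.10 is a single rounding step. Below 0 were 6 genes at 4 h, 22 at 8 h and 25 at 24 h, where 30.9%, 33.2% and 42.9% of all genes were. At 24 h a difference of -0.20 or lower was seen in 6 of 42 genes (14.3%), fewer than the 20.6% of all genes. These were Stc2 (-0.40), Ddit3 and Slc7a11 (-0.30 each), and Pck2, Slc7a5 and Gdf15 (-0.20 each), and Vldlr stood at the other end (0.40). At no time was a member 1.5-fold lower with LIF, where 0.222%, 0.189% and 0.486% of all genes were at 4, 8 and 24 h.

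**Figure D2:**
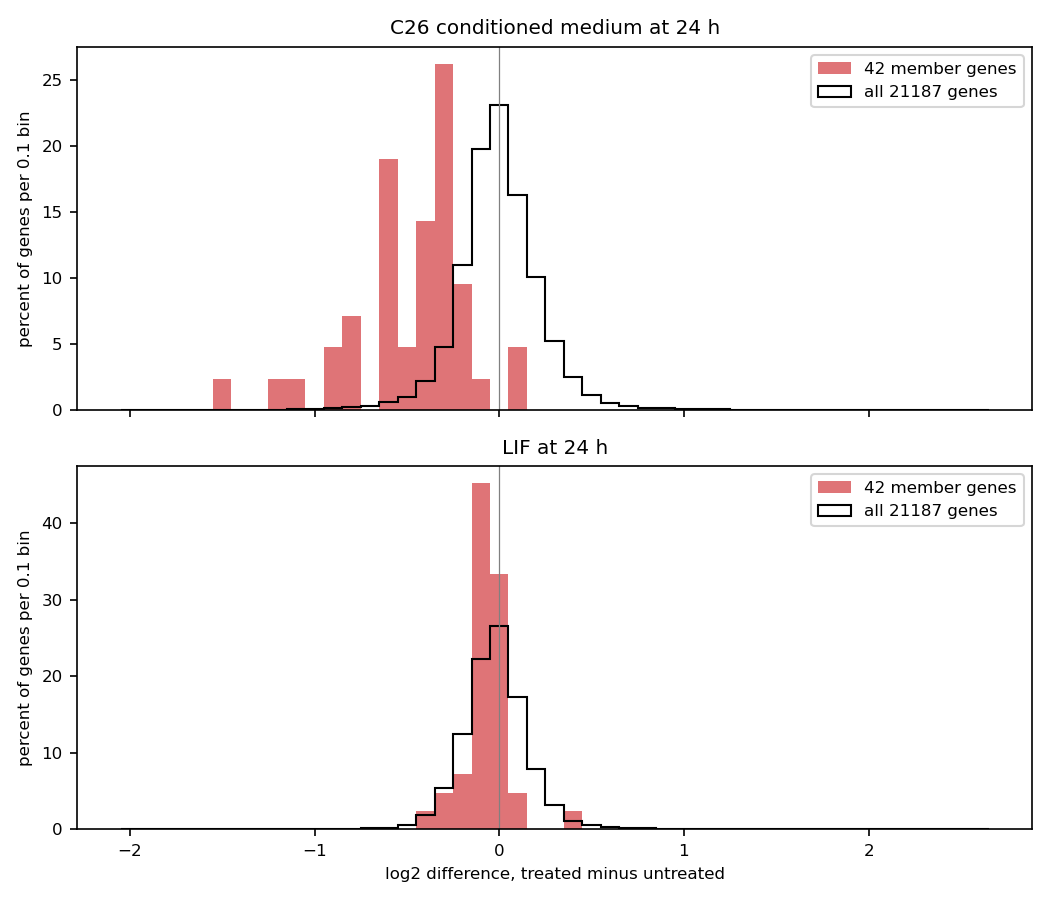
Percent of genes in each bin of 0.1 log2 units by their 24 h difference, treated minus untreated, for the 42 genes (filled) and all 21187 genes (outline), with C26 conditioned medium above and LIF below. With conditioned medium the member genes have a median of -0.38 and all genes a median of 0, and with LIF the medians are -0.10 and 0.

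A test was possible only by treating times or agents as repeats, which they are not. In a limma fit across all genes with the agents as repeats of each time, the 24 h change averaged over LIF and conditioned medium passed an adjusted p of 0.05 for 11 of the 42 genes, all lower. Over all genes 1.59% were called lower and 2.75% in either direction. At an unadjusted p under 0.05 limma had 32 of the 42, where 11.8% of all genes were. The 11 were the transporter genes Slc7a5, Slc6a9 and Slc7a11, the enzyme genes Asns, Pck2, Mthfd2, Shmt2, Chac1 and Cth, the factor gene Atf5 and the hormone gene Stc2. The smallest adjusted p was 0.0077, for Slc7a5, at a mean change of -0.32 ± 0.05 (SE). An SE of this fit leaves out any constant difference between the agents, which the fit removes. Since the mean change averages both agents, it does not show a change with LIF, where the 11 genes stood between -0.10 and -0.40 at 24 h. Whether the agents differ at 24 h alone could not be tested with 1 array per arm and time.

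The call depended on the settings of the fit and on the rounding of the values. It was 0 of 42 without a variance trend, with 34 of 21187 genes called, and 21 members and 2151 genes at an unadjusted p under 0.05. It was also 0 of 42 once the conditioned medium values were rounded like those of LIF, with 0 genes called, and 17 members and 2426 genes at an unadjusted p under 0.05. In the fits that take the times as repeats, limma called 0 of 42 for conditioned medium (0.217% of all genes), with a smallest adjusted p of 0.292 for Slc7a5, and 20 members at an unadjusted p under 0.05 (7.48% of all genes). For LIF limma called 0 of 42 (0% of all genes), with a smallest adjusted p of 0.834 for Vldlr, and 0 members at an unadjusted p under 0.05 (6.82% of all genes). The difference between the agents over all times gave 0 of 42 by limma (0% of all genes), and 1 member at an unadjusted p under 0.05 (4.48% of all genes). Their mean gave 0 of 42 by limma (0.505% of all genes), and 9 members unadjusted (9.36% of all genes). For 24 h minus 4 h limma called 0 of 42 (0.401% of all genes), with a smallest adjusted p of 0.145 for Slc7a11, and 21 members unadjusted (7.44% of all genes).

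Among the role groups, enzymes that make amino acids or handle cysteine and glutathione had the lowest median at 24 h with conditioned medium, -0.865. Cth (Entrez 107869), which splits cystathionine to give cysteine, had levels of 7.78, 7.79 and 5.79 at 4, 8 and 24 h with conditioned medium, against 7.82, 7.95 and 7.31 in untreated myotubes. With LIF its levels were 6.9, 7.0 and 5.8, against 6.7, 7.3 and 5.9 untreated. The treated 24 h array of conditioned medium thus lay 1.52 below its partner, the lowest difference among the 42 genes, while the LIF pair at 24 h differed by -0.10. Averaged over the agents at 24 h the change was -0.81 ± 0.19 (limma adjusted p of 0.0474). Cbs, which makes the cystathionine that Cth uses, had no such difference, at 5.27 with conditioned medium against 5.17 untreated at 24 h. The background limits of those arrays were 4.78 and 4.66, so a fall like that of Cth might not show.

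Chac1 (Entrez 69065), which breaks down glutathione, stood at 9.28, 9.39 and 7.83 with conditioned medium, against 9.29, 9.41 and 8.95 untreated. The LIF arrays gave 8.3, 8.3 and 7.5, against 8.3, 8.4 and 7.6. Its pairs were alike at 4 h and 8 h, and the 24 h difference with conditioned medium was -1.12 (mean over the agents -0.61 ± 0.14, limma adjusted p of 0.0458). Asns (Entrez 27053), asparagine synthetase, a classic target of the response, had 11.99, 11.78 and 10.49, against 11.99, 11.9 and 11.32 untreated. With LIF its levels were 11.1, 11.1 and 10.2, against 11, 11.2 and 10.3. Only the last pair with conditioned medium stands apart, by -0.83, where the LIF pairs differed by at most one rounding step (mean over the agents at 24 h -0.465 ± 0.09, limma adjusted p of 0.0189). Pck2, the mitochondrial enzyme that makes phosphoenolpyruvate, followed at 8.64, 8.83 and 7.53, against 8.74, 8.7 and 8.43 untreated, a 24 h difference of -0.90 (limma adjusted p of 0.0164 for the mean over the agents). Aldh18a1, which starts proline synthesis from glutamate, stood at -0.45 at 24 h.

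**Figure D3:**
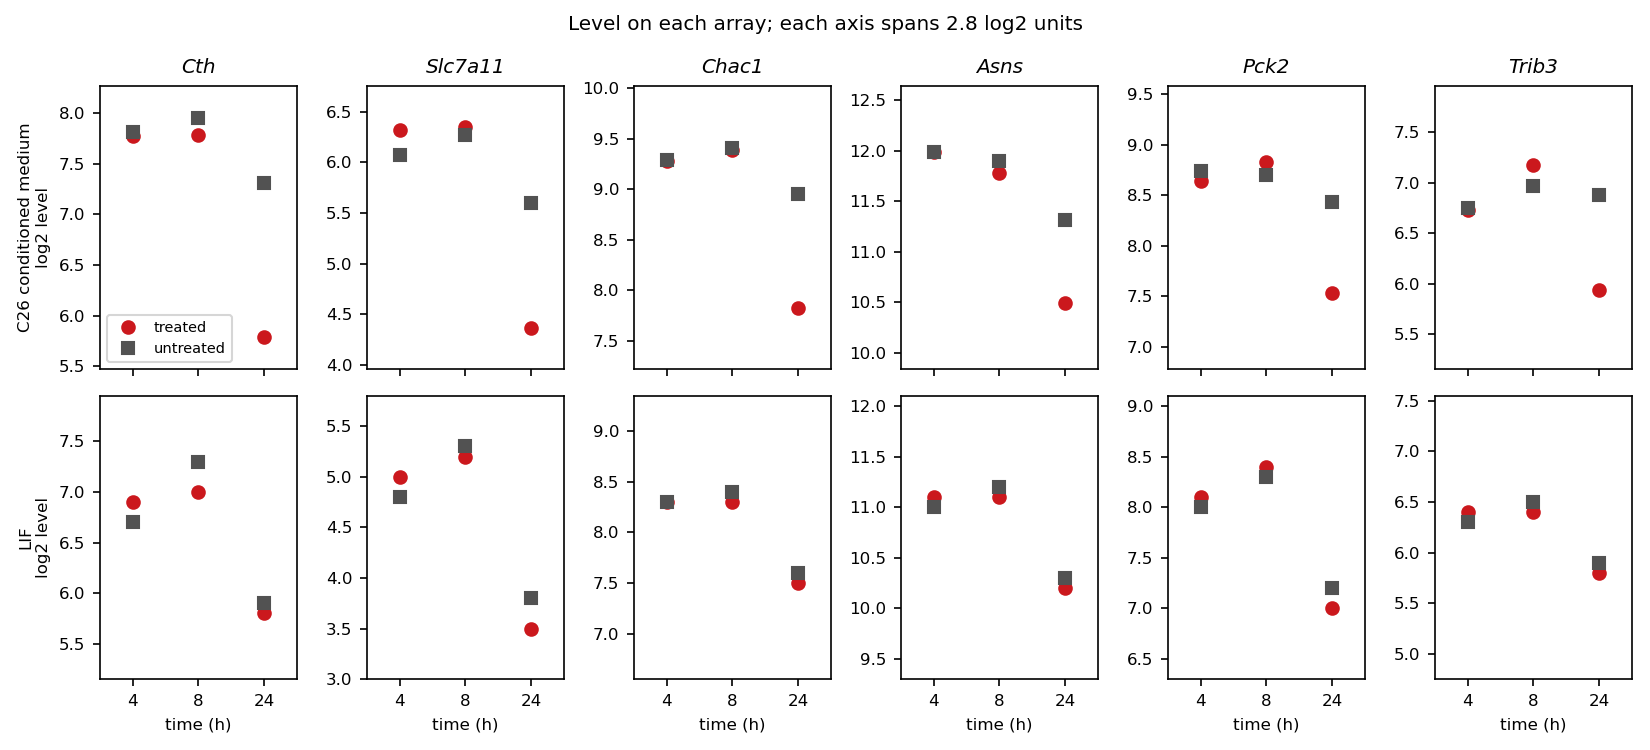
Log2 level of 6 genes on each array at 4, 8 and 24 h, treated (circles) and untreated (squares), in the conditioned medium experiment above and the LIF experiment below. Each axis spans 2.8 log2 units and starts away from 0, and 24 h arrays are not on the scale of the earlier ones, so only the 2 points of one time compare. At 24 h the treated point lies below the untreated one by 0.83 to 1.52 with conditioned medium and by 0.10 to 0.30 with LIF.

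The serine pathway and the mitochondrial one-carbon enzymes formed an even group, all 5 lower at 24 h with conditioned medium, between -0.46 and -0.82 with a median of -0.63. Mthfd2, which oxidises one-carbon units in mitochondria, had 10.17, 10.03 and 8.21 with conditioned medium, against 10.26, 10.1 and 9.03 untreated. With LIF it had 9.7, 9.7 and 8.6, against 9.6, 9.8 and 8.7, so its LIF pairs stayed within 0.10 (mean over the agents at 24 h -0.46 ± 0.10, limma adjusted p of 0.0274). The 3 enzymes that make serine stood in a row: Phgdh, the first step, at -0.63, Psat1, the second, at -0.46, and Psph, the last, at -0.75. Shmt2, which moves a carbon from serine to folate, stood at -0.58. With LIF at 24 h the same 5 genes ran from -0.10 to 0.10.

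Amino acid transporters were lower too, with 5 of 6 below 0 at 24 h with conditioned medium and a median of -0.38. Slc7a11 (Entrez 26570), the cystine carrier of the xCT exchanger, had levels of 6.32, 6.35 and 4.36 with conditioned medium, against 6.07, 6.27 and 5.6 untreated. The LIF arrays gave 5.0, 5.2 and 3.5, against 4.8, 5.3 and 3.8. It was higher than untreated with both agents at 4 h and lower with both at 24 h, by 1.24 with conditioned medium (mean over the agents at 24 h -0.77 ± 0.17, limma adjusted p of 0.0364). Its treated 24 h level lay in the background range, as did 3 LIF levels, so the size of that difference is uncertain.

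The leucine carrier Slc7a5 had differences below 0 at all 3 times with conditioned medium, smaller than those of Slc7a11 at 24 h. Its levels were 11.29, 11.09 and 10.24 with conditioned medium, against 11.38, 11.24 and 10.68 untreated, so every treated array was the lower of its pair. Slc3a2, the heavy chain that pairs with Slc7a5 and with Slc7a11, stood at -0.28 at 24 h, Slc1a4, a carrier of alanine and serine, at -0.31, and the glycine carrier Slc6a9 at -0.60. Slc7a3, a cationic amino acid carrier, lay in the background range on all 12 arrays, so its difference of 0.14 has no clear meaning.

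All 8 regulators were lower at 24 h with conditioned medium, between -0.23 and -0.94. Atf4 itself, which is controlled mostly at translation, gave the value nearest 0, with levels of 10.04, 10.03 and 8.66, against 10.05, 10.0 and 8.89 untreated. Trib3, a pseudokinase that ATF4 induces and that restrains it, had 6.73, 7.17 and 5.94, against 6.75, 6.97 and 6.88. Trib3 was thus higher than untreated by 0.20 at 8 h and lower by 0.94 at 24 h. Ddit4 and Sesn2, inhibitors of the growth kinase mTORC1, were likewise higher at 8 h and lower at 24 h. Their differences at 4, 8 and 24 h were 0.21, 0.23 and -0.58 for Ddit4 and 0.04, 0.16 and -0.38 for Sesn2. Between 4 h and 8 h the untreated levels of Trib3, Ddit4 and Sesn2 rose by 0.22, 0.19 and 0.09. The 8 h differences of Trib3 and Ddit4 are near the size of that drift. Atf5, a relative of Atf4, stood at -0.59 at 24 h (mean over the agents -0.345 ± 0.08, limma adjusted p of 0.0414), the chromatin protein gene Nupr1 at -0.55, the cell death factor gene Ddit3 (CHOP) at -0.33 and the ATF4 partner Cebpg at -0.29.

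The secreted members differed from one another. Gdf15, a hormone that curbs appetite and is raised in cachexia, had 7.46, 7.51 and 5.58 with conditioned medium, against 7.47, 7.55 and 6.14 untreated. Its pairs were close until 24 h, where the difference was -0.56. Fgf21, a fasting hormone, had 7.98, 7.92 and 6.88, against 8.26, 8.08 and 6.94, and so was lower at 4 h (-0.28) more than at 24 h (-0.06). Stc2, stanniocalcin 2, stood at -0.07, -0.20 and -0.55 with conditioned medium and at 0.00, -0.10 and -0.40 with LIF at 4, 8 and 24 h. It had the lowest LIF value of the list at 24 h, and the mean over the agents was -0.475 ± 0.08 (limma adjusted p of 0.0105). Vldlr, a lipoprotein receptor that ATF4 induces in liver cells, had the highest LIF value of the list at 24 h, 0.40, and stood at -0.17 with conditioned medium.

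The tRNA synthetases had small differences within a narrow range. Each of the 12 synthetases and Xpot, the nuclear exporter of tRNA, was lower at 24 h with conditioned medium, between -0.20 (Mars) and -0.38 (Cars and Tars), with a median of -0.31. Levels at 24 h were 9.67 against 10.02 untreated for Aars, 8.48 against 8.86 for Cars, 9.96 against 10.29 for Gars and 8.32 against 8.7 for Tars. In each of these 4 pairs the treated array was the lower, by 0.33 to 0.38. The others were Yars (-0.36), Iars (-0.33), Xpot (-0.31), Eprs (-0.29), Sars (-0.27), Lars (-0.26), Nars (-0.25) and Wars (-0.23). Wars is also known as an interferon-induced gene, and it stood at -0.08 and -0.01 at 4 h and 8 h with conditioned medium. With LIF at 24 h 9 of the 13 genes were at 0 and the range was -0.10 to 0.10. The smallest limma adjusted p among the 13 was 0.0602, for Iars in the mean over the agents at 24 h, at a mean change of -0.215 ± 0.05 (SE).

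Synthetases outside the list had medians nearer 0. The 8 other cytosolic synthetase genes and 3 scaffold genes of the synthetase complex had a median of -0.09 at 24 h with conditioned medium, and only Vars, at -0.41, lay below -0.23 (limma adjusted p of 0.0415 for the mean over the agents). Dars stood at 0.06, Qars at -0.03, Farsa at -0.04, Hars at -0.08, Kars and Farsb at -0.09 each and Rars at -0.14. The 17 mitochondrial synthetase genes had a median of -0.08 and none lay under -0.22. No test of the difference between these lists was made.

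**Figure D4:**
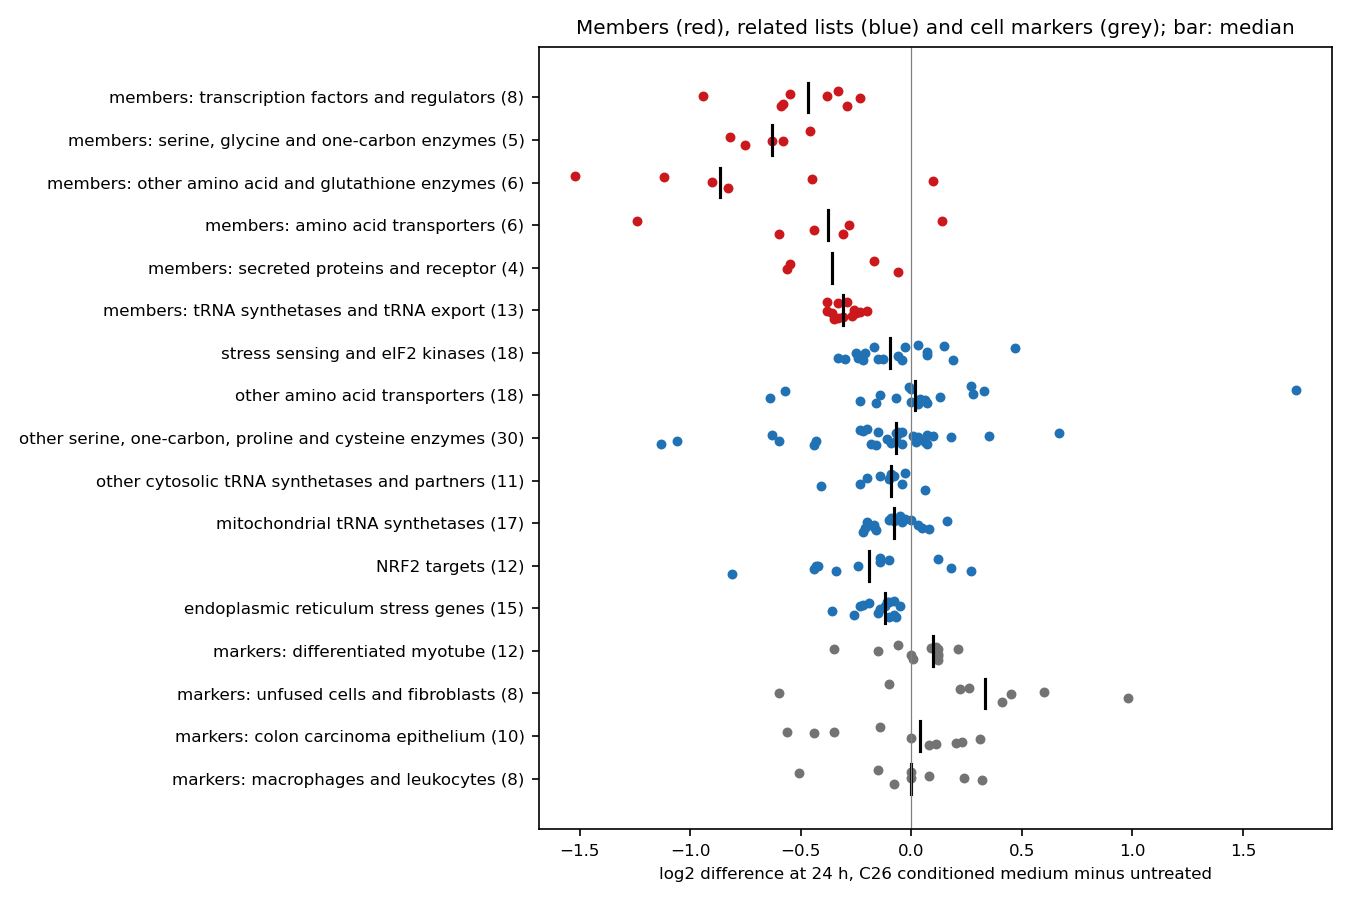
Log2 difference at 24 h, C26 conditioned medium minus untreated, of each gene in the 6 role groups of the 42 genes (red), in 7 related lists (blue) and in 4 lists of cell markers (grey), with the number of genes in brackets and a bar at the median. The red medians run from -0.31 to -0.87 and the blue ones from -0.19 to 0.02.

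Further genes of the pathway were mixed. Of 30 other enzymes of serine, one-carbon, proline and cysteine metabolism 4 were 1.5-fold lower and 1 higher at 24 h with conditioned medium, with a median of -0.07. Over all genes 1.29% were lower and 1.2% higher by that fold. The 4 were Aldh1l2 (-1.13), a mitochondrial folate enzyme, Bcat1 (-1.06), the cytosolic transaminase of branched-chain amino acids, Pycr1 (-0.63), which finishes proline synthesis, and Mthfd1l (-0.60), which works beside Mthfd2. All 4 passed limma for the mean over the agents at 24 h, with adjusted p of 0.0226, 0.00804, 0.0164 and 0.0242 in that order. Of the 30 enzymes 5 passed, counted in either direction, where 2.75% of all genes did. The highest value of the 30 at 24 h with conditioned medium was 0.67. Of 18 other transporters the glutamine carrier Slc1a5 (-0.64) was 1.5-fold lower, the arginine carrier Slc7a1 stood at -0.57 and the glutamate carrier Slc1a3 at 1.74. Of these 18, limma called 2 in either direction for the mean over the agents at 24 h. Of 12 targets of the oxidative stress factor NRF2, which also drives Slc7a11, 9 were below 0, with Nqo1 at -0.81. Over all genes 48.6% were below 0. For the mean over the agents at 24 h limma called 4 of the 12 in either direction, where 2.75% of all genes were called. With LIF at 24 h the 12 ran from -0.50 to 0.70. Gclc and Gclm belong both to these 12 and to the 30 enzymes. All 15 endoplasmic reticulum stress genes were below 0, where 48.6% of all genes were, but between -0.05 and -0.36.

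Upstream of ATF4, the mRNA levels of the eIF2 kinases were mixed in direction. Eif2ak4 (GCN2) stood at -0.25 and Eif2ak3 (PERK) at -0.30 at 24 h with conditioned medium. Eif2ak2 (PKR), an interferon-induced kinase, was higher by 0.67, 1.21 and 0.47 at 4, 8 and 24 h. Across 18 measured genes of this list the 24 h median was -0.10, and Eif2ak1 stood at 0.07, Ppp1r15a at -0.13 and Atf3 at -0.22. These kinases act by phosphorylation, which arrays do not measure.

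The promoters of several members hold the letters to which ATF4 and C/EBP partners bind. The core of this C/EBP-ATF response element was searched as TGATGNAA on both strands of RefSeq promoters of assembly GRCm38.p6, each with 250 bases before and 50 after the start of a gene. Promoters were found for 35 of the 42 genes, and 14 of the 35 (40%) held at least 1 match, 16 sites in all, where 4.51% of 27025 genes with a promoter did. The element was described on genes of this list, among them Asns, so the share is not independent of how the list was drawn up. A match occurred in 5 of the 10 genes with a promoter that were 1.5-fold lower at 24 h with conditioned medium and in 9 of the other 25. Of 9 genes for synthetases and Xpot with a promoter, 5 held one.

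Slc7a11, with the second lowest value of the list, is shown whole because it holds a pair of matches facing each other. The window is chr3:50443564-50443863 on the - strand, read 5′ to 3′ along the gene, with the matches in capitals.
Slc7a11: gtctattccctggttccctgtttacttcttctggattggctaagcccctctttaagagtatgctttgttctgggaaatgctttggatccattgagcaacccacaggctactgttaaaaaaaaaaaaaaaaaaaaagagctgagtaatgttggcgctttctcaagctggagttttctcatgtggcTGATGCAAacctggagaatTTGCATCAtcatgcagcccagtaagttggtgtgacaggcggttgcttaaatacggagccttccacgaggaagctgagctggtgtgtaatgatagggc

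The next sites are shown so that the cores of genes with large, small and near 0 differences can be compared, each with 10 bases on either side and read on the strand that spells the core. Chac1 is at chr2:119351039-119351066 (-), Trib3 at chr2:152344029-152344056 (+), Asns at chr6:7693215-7693242 (-), Pck2 at chr14:55540153-55540180 (-), Tars at chr15:11399656-11399683 (+) and Fgf21 at chr7:45615612-45615639 (+).
Chac1: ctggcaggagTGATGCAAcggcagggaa
Trib3: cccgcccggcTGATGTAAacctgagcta
Asns: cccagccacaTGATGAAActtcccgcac
Pck2: tgtaagatacTGATGTAActttgaaggc
Tars: gctaaccagcTGATGCAAcgggactcct
Fgf21: cctggacggaTGATGCAAtgggggggtc
The same core, TGATGCAA, stands in Chac1 (-1.12 at 24 h with conditioned medium), Tars (-0.38) and Fgf21 (-0.06). Atf5, Mthfd2, Phgdh, Psph and Slc6a9 were 1.5-fold lower with no match in these windows. A match is a run of letters and no measure of binding.

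How each arm differed between 8 h and 24 h can be described only after taking each array's median off, since those arrays were not on one scale. So centred, the 42 genes shifted by a median of -0.45 in treated myotubes of the conditioned medium experiment and of 0.03 in its untreated ones. In the LIF experiment the medians were -0.30 in treated and -0.30 in untreated myotubes. A drop of 1.5-fold or more was seen in 17 genes with conditioned medium and 1 gene in its untreated arm, where 6.06% and 4.30% of all genes dropped as far, and in 8 genes with LIF and 10 in its untreated arm, where 6.24% and 5.73% did. The untreated arms of the 2 experiments thus had different medians, with 1 array at each time. Centring removes an offset only, and a scale difference that changes with level would remain in these shifts.

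**Figure D5:**
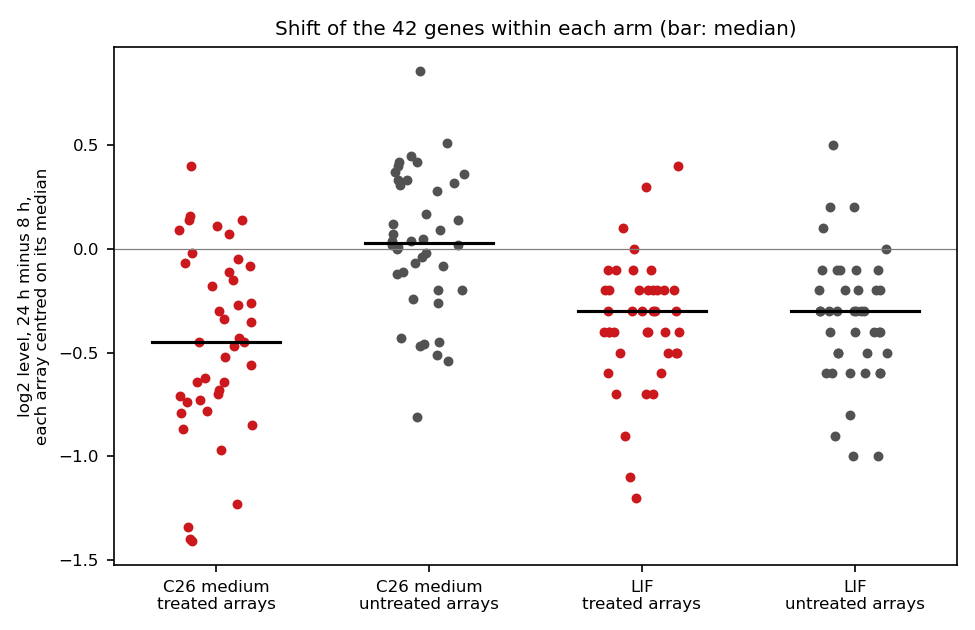
Shift in log2 level between 8 h and 24 h, after each array was centred on its median, for each of the 42 genes in the 4 arms, with a bar at the median. The median is -0.45 in treated and 0.03 in untreated myotubes of the conditioned medium experiment, and -0.30 in both arms of the LIF experiment.

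Across the 42 genes the 24 h differences with conditioned medium and with LIF had a Pearson correlation of 0.34 and a Spearman correlation of 0.40, against 0.14 and 0.02 over all genes. This is a description across genes, which are not independent, and many LIF values are tied by rounding. Levels of cell markers were also compared. The 8 markers of unfused cells and fibroblasts summed to a log2 level of 63.18 with conditioned medium, against 60.96 untreated at 24 h, and to 57.0 with LIF, against 55.5 untreated. Over all arrays the sum ran from 57.0 to 65.71 in treated and from 55.5 to 64.4 in untreated myotubes. Those arrays did not share a scale. Among the 8 markers the matrix genes Dcn (0.98) and Col3a1 (0.60) were higher at 24 h with conditioned medium. The proliferation gene Mki67 (-0.60) was lower, and Tcf21 lay in the background range on all arrays. For the mean over the agents at 24 h limma called 4 of the 8 (2.75% of all genes, either direction). For 24 h minus 4 h it called 3 of the 8 (0.401% of all genes). The 12 myotube markers summed to 134.66 with conditioned medium, against 134.32 untreated, and limma called 0 of the 12 in both contrasts. The part of these marker differences in the values of the 42 genes was not tested.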

How the data were processed

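The authors deposited log2 expression values, 1 per Entrez gene and array, made with RMA per the submitters' processing notes; its version and probe set definition: not given in the sources used here. Their tables also hold a score per gene, a signed fold change of treated over untreated per the file headers, which matched the log2 differences to within rounding for 100% of genes and was tried as an alternative. Those tables hold 12 more per-sample columns, left unused. No gene was filtered out. With R 4.3.3, limma 3.58.1 (eBayes with a variance trend) was fitted to all 12 arrays and 21187 genes with the pair as a block. One fit had an effect per agent (4 residual degrees of freedom) and one added a time effect shared by the agents (2). Benjamini-Hochberg adjustment ran over all genes. With pooled RNA and times or agents as repeats, a p does not set a change against replicate error. In the fit per agent it sets a mean change against its spread over the times. The fit with a time effect removes a constant difference between the agents. Its spread is how unlike their courses over time were, not how far apart they lay at 24 h. Each fit draws its spread toward a trend over all genes. A gene with unlike changes can thus pass, as Cth did at 24 h (-1.52 with conditioned medium and -0.10 with LIF). The fits were tested on simulated data. Members, related lists and tests were chosen with earlier results of these data known, and every member is named. Names and promoters came from RefSeq, assembly GRCm38.p6, in which 42 of 42 members matched. The number of arrays limits the precision.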

Additional observations from a re-analysis of the deposited data

Results flagged for a closer look

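For 2 of the 42 genes the differences of both agents had one sign at one time and the other sign at another. Slc7a11 was higher with both agents at 4 h, by 0.25 with conditioned medium and 0.20 with LIF, and lower with both at 24 h, by -1.24 and -0.30, a mean shift of -0.995 between the times; limma gave an adjusted p of 0.145 for 24 h minus 4 h, and some of its levels lay in the background range. Pck2 was higher with both at 8 h, by 0.13 and 0.10, and lower with both at 24 h, by -0.90 and -0.20, a mean shift of -0.665; the difference between 24 h and 8 h was not tested. The LIF values at 4 h and 8 h are 1 or 2 rounding steps.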

How the results depend on the processing

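The count of 11 members called for the 24 h mean over the agents was 0 without a variance trend, 4 after quantile normalization and 0 with conditioned medium values rounded to 1 decimal, and between 8 and 15 under the other settings run. The cause was not tested. For the other 5 contrasts limma called 0 members under every setting run, and for the 4 that do not compare times also with each time left out in turn. Over all genes the counts ran from 0 to 28 for LIF (0 in the fit reported), 0 to 76 for conditioned medium (46), 0 to 284 for their mean (107), 0 to 165 for 24 h minus 4 h (85) and 0 to 819 for the 24 h mean (582). With conditioned medium at 24 h 3 members were 2-fold lower in place of 11 at 1.5-fold, the median ran from -0.38 to -0.31, and of 126 single gene values 123 moved by less than 0.1 and 3 by more, Psph (-0.64), Cth (-1.4) and Stc2 (-0.45), all with quantile normalization, which left 8 members 1.5-fold lower. The LIF medians at 8 h and 24 h were 0 from the authors' deposited tables of fold changes, which carry 1 decimal. Every fit was paired, with the treated and untreated array of an agent and time as the block, and the labels give no replicate numbers for another pairing. The share over genes above background was added after seeing the data.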
